A study of Mus musculus with 5 samples.

Results

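The 10 genes described here encode 4 ligands of the vascular endothelial growth factor (VEGF) family (Vegfa, Vegfb, Pgf and Vegfc), their 3 receptor tyrosine kinases (Flt1, Kdr and Flt4), the 2 neuropilin co-receptors (Nrp1 and Nrp2) and Tek, the receptor of the angiopoietins. They were taken by symbol and not by a rule on their values, but with earlier results of these data known. The 23420 gene symbols they came from were measured in the dentate gyrus (DG) of mice kept with or without a running disk. All 10 passed the minimum level set for an expressed gene. RNA of microdissected DG of wild-type male CD1 mice, an outbred strain, was sequenced from 5 groups after 4 weeks of housing and perfusion of the mice with buffered saline, which clears blood from the vessels. The labels give the age of the mice as 4 months and the methods of the study as 3 months.

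LD mice were housed individually with a locked disk and served as the sedentary control. CE mice lived in groups, in a complex environment with a locked disk and tunnels, so that they had company and objects but could not run. RUN mice were housed individually with a disk that turned. Each of these 3 libraries held pooled RNA of 8 mice. The L-RUN and H-RUN libraries held the RNA of the 4 RUN mice with the lowest and the 4 with the highest running distances, so RUN contains the same RNA as L-RUN and H-RUN together, and the running libraries are not independent of each other. CE differs from LD in company and in objects at once. With 1 library a group there was no replicate and no test between groups, and the read depth is not given in the files used here.

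VEGF-A is the main growth and permeability signal for blood vessels, and its gene is a target of the hypoxia-inducible factors (HIF). KDR is the receptor through which endothelial cells receive most of this signal. FLT1 binds VEGF-A more tightly but signals weakly, and a soluble form of it captures the ligand. VEGF-B and placental growth factor bind FLT1 and not KDR, and VEGF-C acts through FLT4, best known from lymphatic vessels. Neuropilins bind VEGF and also the class of semaphorins that steers axons, so in brain they are found in neurons as well as in vessels. In the hippocampus VEGF is known for its link to vessel growth and to neurogenesis in the DG.

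Levels are regularized log (rlog) values, which the authors made with DESeq2 from read counts. They are on the log2 scale, normalized over the 5 libraries and drawn towards each gene's mean. A gene was called changed when its rlog value differed by at least 0.3 between libraries, the cut-off of the study's own methods. The measure of error was the spread of RUN around the mixture of L-RUN and H-RUN that it should equal, which gave a technical standard deviation (SD) of 0.0365 for a difference between 2 libraries. For the 10 genes, taken by decile of expression, it was 0.028 to 0.047. It covers library preparation and sequencing but not differences between mice. In RUN the 10 genes lay between 0.054 below (Kdr, 1.3 SD of the residual) and 0.018 above (Flt1) the mixture.

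Of the 10 genes, only Flt1 reached the cut-off, and it was lower in RUN and in L-RUN than in LD. Because the findings turn on Flt1, its ligand Vegfa and its sister receptor Kdr, the 250 bases before the RefSeq start of each are printed (GRCm38.p6, all on the minus strand). Vegfa has another RefSeq start inside the gene, and the outer one is shown. Capitals mark matches, on either strand, to the core hypoxia response element (ACGTG or GCGTG), the GC box GGGCGG, the TATA box TATAAA and the cyclic AMP response element TGACGTCA, and no match overlapped another.
Flt1, chr5:147726012-147726261: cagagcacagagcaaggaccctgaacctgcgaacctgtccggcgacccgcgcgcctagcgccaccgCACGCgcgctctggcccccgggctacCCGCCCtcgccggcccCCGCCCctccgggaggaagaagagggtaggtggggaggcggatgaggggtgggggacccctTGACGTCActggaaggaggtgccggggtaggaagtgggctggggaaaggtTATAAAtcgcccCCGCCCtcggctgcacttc
Kdr, chr5:75978456-75978705: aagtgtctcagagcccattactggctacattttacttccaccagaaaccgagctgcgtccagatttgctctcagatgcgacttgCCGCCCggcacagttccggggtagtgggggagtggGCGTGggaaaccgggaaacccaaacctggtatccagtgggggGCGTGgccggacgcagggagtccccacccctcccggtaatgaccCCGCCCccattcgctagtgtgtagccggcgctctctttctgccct
Vegfa, chr17:46032378-46032627: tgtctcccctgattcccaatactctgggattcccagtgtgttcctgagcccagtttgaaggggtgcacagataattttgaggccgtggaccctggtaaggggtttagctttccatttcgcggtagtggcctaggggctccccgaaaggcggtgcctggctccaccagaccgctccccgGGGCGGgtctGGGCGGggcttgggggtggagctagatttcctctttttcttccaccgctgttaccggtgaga

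The Flt1 window held 3 GC boxes, 1 TATA box, 1 cyclic AMP response element and 1 GCGTG. The Kdr window held 2 GC boxes and 2 GCGTG, and the outer Vegfa window held 2 GC boxes and none of the other letters. The window before the inner Vegfa start, which is not printed, held 1 ACGTG, 1 GCGTG and 1 GC box. Of 32851 promoter windows of this length, 32.7% held a GC box, 38.6% held ACGTG or GCGTG, 12.4% held TATAAA and 1.55% held TGACGTCA. The last pair of motifs was searched after the sequences had been seen. These matches describe letters and say nothing of a factor bound there.

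Vegfa (chromosome 17, 46016993 to 46032369, GRCm38) had rlog values of 10.78 in LD, 10.74 in CE, 10.56 in RUN, 10.57 in H-RUN and 10.52 in L-RUN. The 3 running libraries lay together, below both libraries of mice without a turning disk, and did not overlap with them. The same order held for 16.2% of expressed genes. Compared to LD the level of Vegfa in RUN was 13.7% lower (difference of -0.21, 5.9 technical SDs). It was 13.1% lower in H-RUN (-0.20, 5.6 SDs) and 16.2% lower in L-RUN (-0.26, 7.0 SDs). None of these reached the cut-off of 0.3. CE differed from LD by -0.03, less than 1 technical SD, and was 0.18 above RUN (5.0 SDs). The lowest value of LD and CE was 0.172 above the highest running value, the widest such gap of the 10 genes. Beside all 13550 expressed genes, 2.67% had a lower difference than Vegfa in RUN, 1.88% in H-RUN and 3.66% in L-RUN.

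Vegfb (chromosome 19, 6982473 to 6987651), whose product binds FLT1 and acts on endothelial cells with little effect on vessel growth, had values of 10.15 in LD, 10.27 in CE, 10.17 in RUN, 10.18 in H-RUN and 10.20 in L-RUN. CE stood above the other 4 libraries, by 0.12 over LD (9.0%, 3.4 technical SDs), and the running libraries were 0.03 to 0.05 above LD, at most 1.5 SDs. Pgf (chromosome 12, 85166635 to 85177790), another ligand of FLT1, had values of 6.14 in LD, 6.20 in CE, 6.20 in RUN, 6.20 in H-RUN and 6.19 in L-RUN. LD was the lowest library, but by less than 2 technical SDs. Vegfc (chromosome 8, 54077606 to 54187096), the lymphatic ligand, had values of 6.49 in LD, 6.49 in CE, 6.47 in RUN, 6.47 in H-RUN and 6.50 in L-RUN. All its differences from LD were within 1 technical SD, and the 5 libraries could not be put in order. Pgf and Vegfc, like Flt4 below, are at low levels, where the rlog draws values most towards their mean.

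**Figure D1:**
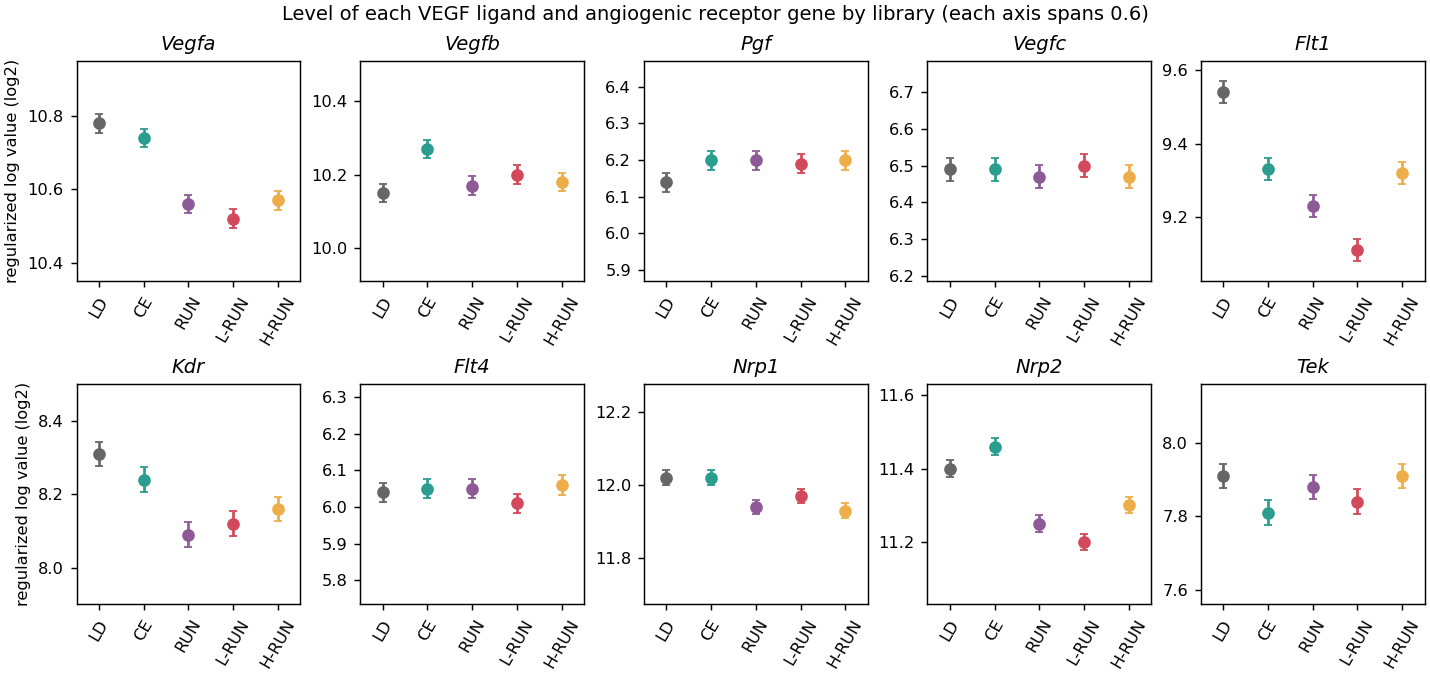
Level of each of the 10 genes (rlog, log2 scale) in the 5 libraries, 1 point a library, with bars of 1 technical SD of a single library that do not cover differences between mice. Each axis spans the same range. Vegfa, Kdr, Nrp1 and Nrp2 are lower in the 3 running libraries than in LD and CE, as are 16.2% of expressed genes. Flt1 is highest in LD at 9.54 and lowest in L-RUN at 9.11.

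Flt1 (chromosome 5, 147561604 to 147726011, minus strand, 30 exons in the transcript used) had values of 9.54 in LD, 9.33 in CE, 9.23 in RUN, 9.32 in H-RUN and 9.11 in L-RUN. LD was the highest of the 5 libraries and L-RUN the lowest, while CE and H-RUN were 0.014 apart, well within the error. Compared to LD the level fell by 19.2% in RUN (difference of -0.31, 7.4 technical SDs) and by 26.0% in L-RUN (-0.43, 10.4 SDs), both past the cut-off. The difference was -0.21 in CE (13.6% lower, 5.0 SDs) and -0.22 in H-RUN (14.4% lower, 5.4 SDs), which did not reach it. The RUN value, at -0.307, lay past the cut-off by less than its technical SD of 0.042, and the next of the 10 genes in RUN was Kdr at -0.220. Against the mean of LD and CE in place of LD, it was -0.20 in RUN, short of the cut-off, and -0.33 in L-RUN. H-RUN, which held the mice that ran farthest, was 0.21 above L-RUN (5.0 SDs). In bulk tissue fewer cells of a type and less RNA per cell cannot be told apart, and values per gene do not separate the membrane and the soluble form of FLT1.

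Kdr (chromosome 5, 75932827 to 75978458) had values of 8.31 in LD, 8.24 in CE, 8.09 in RUN, 8.16 in H-RUN and 8.12 in L-RUN. The running libraries were again below LD and CE, with a gap of 0.082 (1.7 technical SDs). Compared to LD the difference was -0.22 in RUN (14.2% lower, 4.7 SDs), -0.15 in H-RUN (9.7%, 3.1 SDs) and -0.19 in L-RUN (12.1%, 3.9 SDs). Unlike Flt1, Kdr in CE differed from LD by -0.07, or 1.4 SDs, and H-RUN from L-RUN by 0.04, within 1 SD. Flt4 (chromosome 11, 49609263 to 49652739) had values of 6.04 in LD, 6.05 in CE, 6.05 in RUN, 6.06 in H-RUN and 6.01 in L-RUN, and no library stood apart from LD by more than 1.0 technical SD.

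Nrp2 (chromosome 1, 62703285 to 62818695), the neuropilin that pairs with the receptor of VEGF-C and binds semaphorin 3F, had values of 11.40 in LD, 11.46 in CE, 11.25 in RUN, 11.30 in H-RUN and 11.20 in L-RUN. All running libraries lay below LD and CE, by 0.098 or more (3.2 technical SDs). The difference from LD was -0.15 in RUN (10.1% lower, 5.0 SDs), -0.10 in H-RUN (6.6%, 3.2 SDs) and -0.20 in L-RUN (13.1%, 6.6 SDs). Nrp2 gave the widest separation of CE from RUN among the 10 genes, with CE 15.6% higher (0.21, 6.8 SDs). Nrp1 (chromosome 8, 128358604 to 128503363), the co-receptor of KDR and receptor of semaphorin 3A, had values of 12.02 in LD, 12.02 in CE, 11.94 in RUN, 11.93 in H-RUN and 11.97 in L-RUN. The running libraries again lay below LD and CE, by at least 0.051 (1.8 technical SDs), with differences from LD of -0.09 in RUN (3.1 SDs), -0.09 in H-RUN (3.2 SDs) and -0.05 in L-RUN (1.8 SDs). In the GENCODE annotation an exon of Nrp1 shares 80 bases with the microRNA gene Mir1903. Whether they also overlap in the gene models used for counting was not examined.

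Tek (chromosome 4, 94739289 to 94874976), through which angiopoietins stabilize vessels, had values of 7.91 in LD, 7.81 in CE, 7.88 in RUN, 7.91 in H-RUN and 7.84 in L-RUN. CE was the lowest library, 0.10 below LD (2.0 technical SDs), and the running libraries were within 1.5 SDs of LD.

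**Figure D2:**
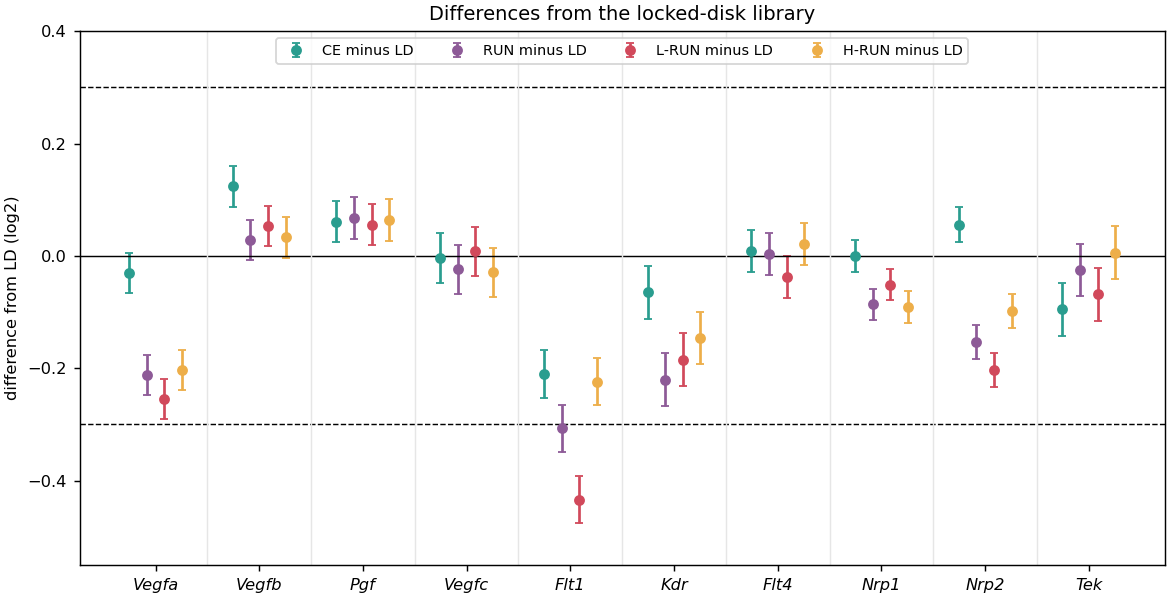
Difference of each gene from LD (log2 scale) in CE, RUN, L-RUN and H-RUN, with bars of 1 technical SD of a difference, and dashed lines at the cut-off of 0.3 in either direction. The 4 comparisons share the LD library. Only Flt1 passes a line, at -0.307 in RUN and -0.434 in L-RUN, and Vegfa lies between -0.20 and -0.26 in the running libraries.

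Relative to transcript length, Nrp1 and Vegfb were the most abundant, with mean levels of 1110 and 914 linear rlog units per kb of the longest annotated transcript. They were followed by Vegfa at 462 and Nrp2 at 381. The endothelial receptors were lower, with Flt1 at 92.1, Tek at 50.3 and Kdr at 49.1, and Vegfc (36.6), Pgf (35.0) and Flt4 (10.5) were the lowest. The Flt1 receptor transcript was therefore present at more units per kb than that of Kdr in this tissue. These levels rest on rlog values turned back to the linear scale and only order the genes.

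Counted over the 10 genes, 1 was changed in RUN and 1 in L-RUN, Flt1 each time and lower, and 0 in CE and in H-RUN. Beside these counts, among all expressed genes 0.952% were lower and 0.362% higher by 0.3 or more in RUN, and 2.33% and 0.797% in L-RUN. In CE the shares were 0.266% lower and 0.332% higher, and in H-RUN 0.472% and 0.354%. None of the 10 genes was changed between H-RUN and L-RUN (background 0.974% higher and 0.561% lower in H-RUN) or between CE and RUN (0.539% higher and 0.295% lower in CE). The median difference of the 10 genes from LD was -0.002 in CE, -0.056 in RUN, -0.060 in H-RUN and -0.060 in L-RUN, against medians over all expressed genes of -0.002 in CE, -0.001 in RUN, -0.004 in H-RUN and -0.002 in L-RUN.

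By the finer rule of 3 technical SDs, 5 of the 10 genes were lower in RUN than in LD (Vegfa, Flt1, Kdr, Nrp1 and Nrp2), against 14.4% of expressed genes. The same 5 were lower in H-RUN (background 10.4%), and 4 of them, without Nrp1, in L-RUN (19.5%). In CE, Flt1 was lower (13.0%) and Vegfb higher (10.7%) by this rule. H-RUN was above L-RUN for 2 genes, Flt1 and Nrp2 (13.7%), and CE was above RUN for 4, Vegfa, Kdr, Nrp1 and Nrp2 (10.4%). This rule counts against technical noise alone, and these shares of all genes show how often any gene passed it. Marker lists of other cells also passed it often. Lower than LD by 3 technical SDs were 6 of 10 granule cell markers in RUN, 6 in H-RUN and 8 in L-RUN, and 7, 2 and 6 of 12 astrocyte markers in the same order. Of 10 CA1 and CA3 markers 5, 3 and 7 were lower. Of 11 microglia markers 4, 3 and 5 were lower, and of 11 oligodendrocyte markers 2, 1 and 7. Of 22 endothelial markers 0, 1 and 1 were lower, of 14 mural cell markers 1, 0 and 3, and of 15 leptomeningeal markers 2, 3 and 0. Counts like 5 of 10 thus occurred in some of these lists, such as granule cell markers, but not in the endothelial, mural and leptomeningeal ones. The technical SD is smaller for abundant genes, at 0.022 in the highest decile against 0.042 for Flt1 and 0.047 for Kdr. Lists of abundant genes therefore pass this rule with smaller differences. In all 3 running libraries, 5 of the 10 genes lay below LD and CE, against 16.2% of expressed genes, and none lay above them, against 15.2%. The 5 were again Vegfa, Flt1, Kdr, Nrp1 and Nrp2, but for Flt1 the gap was only 0.014, or 0.3 technical SDs, with CE at 9.33 and H-RUN at 9.32.

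Length of the transcript moved with the differences across all genes. Over 13452 expressed genes with an annotated length, Spearman's rho of the difference from LD with the length of the longest transcript was -0.33 in CE, -0.49 in RUN, -0.37 in H-RUN and -0.51 in L-RUN, a description over genes that share the same libraries. Flt1 (6895 bases), Nrp2 (6723 bases) and Kdr (5924 bases) are long, and Vegfa (3451 bases) is near the median of 3517. With the trend removed by a lowess curve, Flt1 differed from LD by -0.17 in CE, -0.24 in RUN, -0.18 in H-RUN and -0.35 in L-RUN, so that it remained past the cut-off in L-RUN and not in RUN. Nrp2 in the running libraries came to between -0.055 and -0.117, and Kdr to between -0.110 and -0.167. Short of 3 technical SDs were then Kdr in H-RUN (-0.110) and L-RUN (-0.116), with an SD of 0.047. So were Nrp2 in RUN (-0.088) and H-RUN (-0.055), with an SD of 0.031, and Nrp1 in RUN (-0.082, SD of 0.028). Fewer of the 10 genes thus passed that rule without the trend, and the share of all genes passing it then was not computed. Vegfb, with a short transcript of 1281 bases, came to 0.086 in CE, short of 3 technical SDs (SD of 0.036). In the running libraries Vegfb came to between -0.036 and -0.006, where it had been above LD. Vegfa hardly differed from its values before, at -0.21 in RUN, -0.20 in H-RUN and -0.25 in L-RUN.

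**Figure D3:**
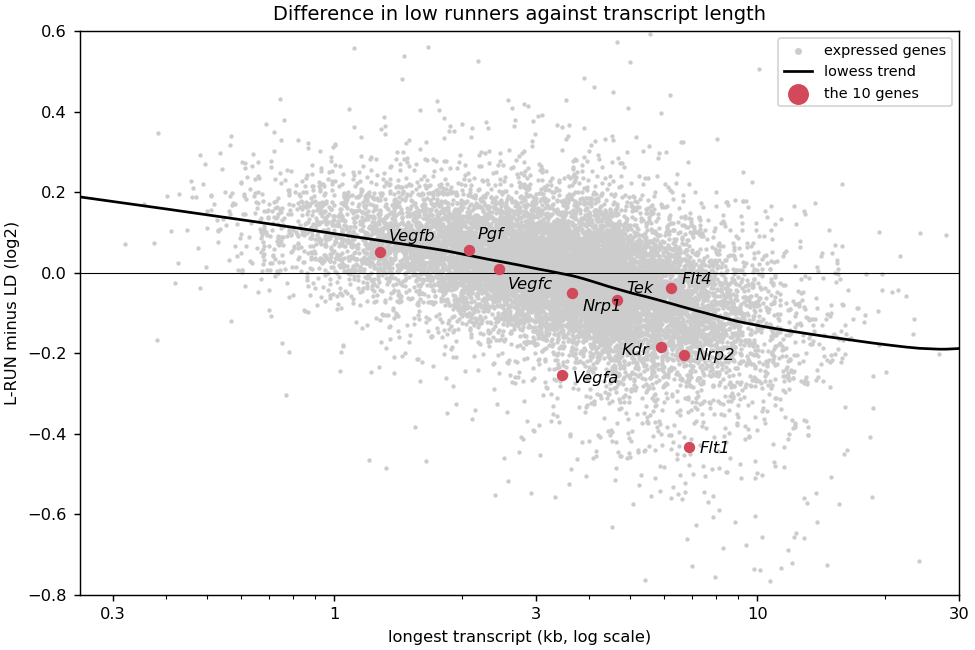
Difference of L-RUN from LD (log2 scale) against the length of the longest annotated transcript (kb, log axis) for 13431 expressed genes in grey, with 21 more outside the axes, the 10 genes in red and the lowess trend in black. Flt1 lies at -0.434 where the trend is at -0.089, and Vegfa lies at -0.255 where it is at -0.002.

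Genes with a profile near that of Flt1 were sought among all expressed genes by the root mean square distance of the 4 differences from LD. The nearest were Lzts1, a postsynaptic protein (distance of 0.017, 5019 bases), and Lrp1b, a large lipoprotein receptor (0.017, 16294 bases). Both are longer than the median expressed gene, and neither is an endothelial marker used here.

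Markers of vessels were measured in the same libraries. Of 22 endothelial markers, among them the glucose transporter Slc2a1 and the anion transporter Slco1a4, none was changed in CE, RUN, L-RUN or H-RUN, and their median differences were -0.012, 0.024, 0.015 and 0.005. Between H-RUN and L-RUN, 1 was changed, Ly6a, which was 0.31 lower in H-RUN. The summed level of the list was between 13.27 and 13.30 on the log2 scale in all 5 libraries, and none of its markers was at 0. In each of the 4 comparisons with LD, Flt1 was lower than every one of the 22 markers, in L-RUN at -0.43 with the lowest marker at -0.13. In H-RUN, however, Flt1 was at -0.224 with Ly6a at -0.200, which is within the technical SD of either gene. Kdr was likewise below all 22 in RUN (-0.22, lowest marker at -0.12) and in L-RUN (-0.19, lowest marker at -0.13), but not in CE or H-RUN. The length trend was not removed from these differences. Ptprb, listed with the partners of the ligands and of Tek, was also below all 22 in CE (-0.19), RUN (-0.16) and L-RUN (-0.22). In H-RUN it was at -0.09 and not below them all. Among 14 markers of mural cells, which wrap the vessel, 1 was changed relative to LD, Vtn, which was 0.43 higher in L-RUN. In H-RUN, Vtn was 0.41 and the smooth muscle actin Acta2 0.32 lower than in L-RUN, and the list's summed level was 11.98 to 12.10.

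Markers of some other cell types differed between the libraries. Of 15 expressed leptomeningeal fibroblast markers out of 16, 3 were higher in CE, 6 in RUN and 9 in L-RUN, and 2 were lower in H-RUN, with Igf2 1.096 higher in L-RUN. Their summed level was 12.39 in LD and 12.85 in L-RUN, the library with the lowest Flt1, and 12.26 in H-RUN, where Flt1 was 0.22 below LD. Of 12 astrocyte markers, a cell type known to make VEGF, the glutamate transporters Slc1a2 (-0.36) and Slc1a3 (-0.30) were lower and the connexin Gjb6 (0.34) higher in L-RUN, and the summed level was 16.81 to 17.04. Of 10 granule cell markers, C1ql2 was higher by 0.37 in RUN, 0.40 in H-RUN and 0.37 in L-RUN, and Prox1 was 0.41 lower in L-RUN, with a summed level of 15.49 to 15.65. Of 10 markers of CA1 and CA3 pyramidal cells, which border the DG, 4 were lower in L-RUN, and their summed level was 13.26 in L-RUN and 13.49 or 13.50 in LD, CE and H-RUN. Fibcd1, of this list, was lower in RUN (-0.46), L-RUN (-0.46) and H-RUN (-0.52) and higher in CE (0.31), and Bok was 0.41 higher in H-RUN. Of 9 choroid plexus markers 4 were expressed, and Ttr was 0.62 higher in CE. None of 11 microglia and 11 oligodendrocyte markers reached 0.3 relative to LD, with summed levels of 13.18 to 13.32 and 15.01 to 15.20. Folr1, a defining choroid plexus marker, was near the floor at 2.41 to 2.44. The part of these shifts in the values of the 10 genes was not tested.

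**Figure D4:**
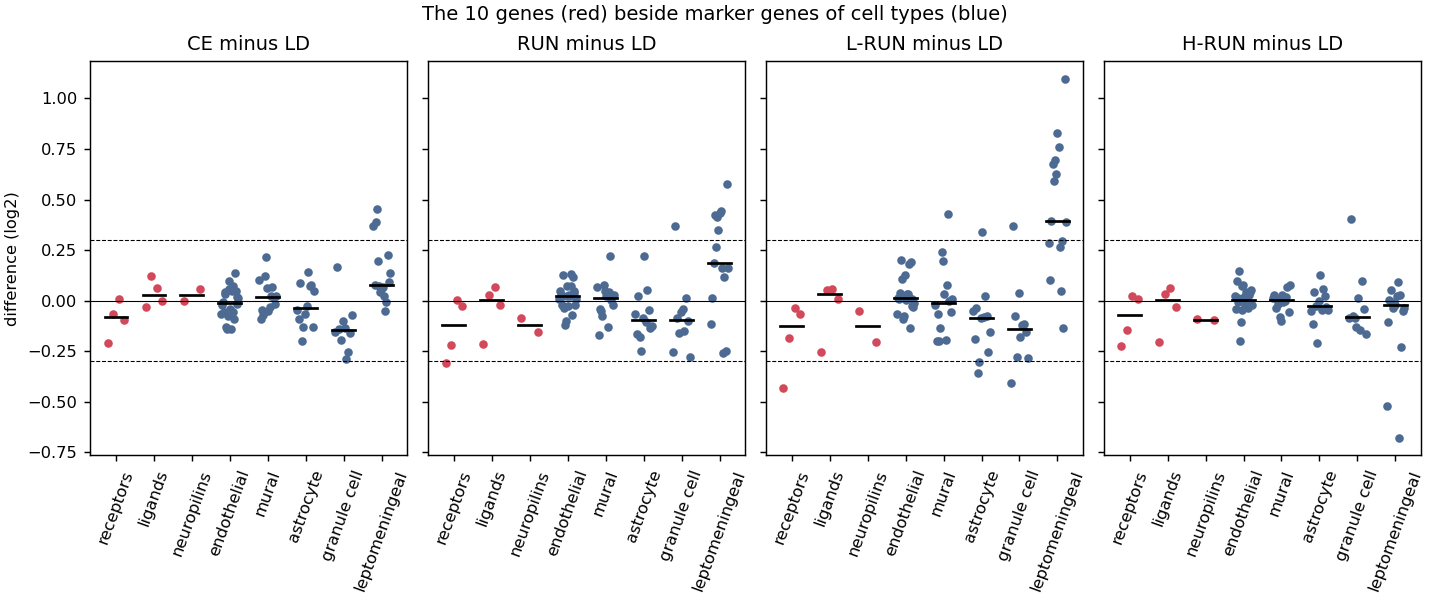
Differences from LD (log2 scale) of the 10 genes, in red and split by role, beside marker genes of 5 cell types in blue, with a black bar at each median and dashed lines at the cut-off of 0.3. The endothelial medians lie between -0.012 and 0.024 in all 4 comparisons, whereas Flt1, the lowest red point among the receptors, lies at -0.434 in L-RUN. The leptomeningeal median reaches 0.396 in L-RUN.

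Among the partners of the ligands and of Tek, 11 of the 12 listed symbols were in the files and 9 were expressed (VEGF-D is listed under Figf). Ccbe1, which helps to process VEGF-C into its active form, had values of 10.05 in LD, 9.86 in CE, 9.59 in RUN, 9.67 in H-RUN and 9.54 in L-RUN. It was lower than LD by 0.3 or more in all 3 running libraries (-0.46 in RUN, -0.38 in H-RUN and -0.50 in L-RUN). Among all expressed genes 0.952% were lower by 0.3 or more in RUN, 0.472% in H-RUN and 2.33% in L-RUN. The 3 running values of Ccbe1 lay below LD and CE, an order that held for 16.2% of expressed genes. The other 8 were not changed in any comparison with LD. Vegfc itself, the substrate, stayed between 6.47 and 6.50, and only 10.5% of expressed genes had a lower mean. At such low levels the rlog draws values towards their mean, so differences are understated. Neither Angpt1 nor Angpt2, the ligands of Tek, reached the cut-off, with values of 7.07 to 7.12 and 5.21 to 5.36. Of 13 expressed neuropilin partners, semaphorins of class 3 and plexins among them, none was changed relative to LD, with the highest level in Plxna4 (-0.15 in RUN, -0.27 in L-RUN) and Plxna2 (-0.11 in RUN, -0.16 in L-RUN). Between CE and RUN, Sema3c was 0.33 lower in CE.

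Of 27 genes of VEGF receptor signalling, none was changed in CE or H-RUN, and 1 was lower in RUN and L-RUN. This was Prkcb (-0.30 in RUN and -0.56 in L-RUN), a kinase that is also abundant in neurons. The median of the 27 was -0.011 in RUN and -0.020 in L-RUN. Of 12 expressed genes of 16 that act downstream of VEGF and Notch in endothelium, 2 were lower in L-RUN and none was changed in the other comparisons with LD. These 2 were Egr3 (-0.33), an activity-regulated transcription factor, and Prox1 (-0.41), which is lymphatic in vessels but also marks granule cells and stands in that list too. Dll4, the Notch ligand of sprouting vessels, was at 6.27 to 6.32 in all libraries, a low level at which rlog differences are understated.

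The HIF pathway, upstream of Vegfa, was followed only through the RNA of 20 expressed genes of 22, and none was changed in any comparison with LD. Their medians were -0.037 in CE, -0.014 in RUN, -0.003 in H-RUN and -0.031 in L-RUN. Regulators and targets are pooled in this list and protein was not measured, so these values do not give the activity of HIF. By the rule of 3 technical SDs, 6 of the 20 were lower than LD in RUN, against 14.4% of expressed genes. For H-RUN the count was 6 (background 10.4%), for L-RUN it was 5 (19.5%), and CE had 7 (13.0%). Hif1a, the oxygen-regulated subunit, was at 11.43 in LD and 11.26 in RUN (-0.17), and Pfkfb3, a glycolytic regulator, was 0.27 below LD in L-RUN. Ndrg1 had the largest difference from LD in the list, at -0.29 in H-RUN, and was at -0.20 in RUN and -0.08 in L-RUN. Pdk1, of the same list, went the other way, and was above LD by 0.20 in RUN, 0.21 in H-RUN and 0.18 in L-RUN. The most abundant targets were the glycolytic enzymes Pgk1 (13.28 to 13.38) and Ldha (12.50 to 12.59), each with a technical SD of 0.022. Pgk1 was 0.089 below LD in CE and 0.081 below it in L-RUN, and Ldha was 0.066 above LD in CE.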

How the data were processed

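Gene expression in the DG was measured by RNA-Seq of polyadenylated RNA in 5 libraries, 1 for each group given by the labels. The authors mapped reads to mm10 with TopHat2 2.0.10, assigned them to RefSeq genes with HTSeq and, with DESeq2 1.10.1, normalized all libraries at once and deposited 1 regularized log value per gene and library, on the log2 scale. CASAVA 1.8.2 is also named in the submitters' processing notes. Strandedness of the counting is not given in the sources used here. The regularized log draws values of weakly counted genes towards their mean, so their differences are understated. Counts were not used here, so no count model was fitted, depth is unknown and no p-value is given.

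Differences of the deposited values were taken over 13550 genes with a mean of at least 5, and 0.3 in size counted as changed. The technical SD came from RUN minus log2 of the linear mean of L-RUN and H-RUN (median absolute deviation, residual SD of 0.0316, per decile). Its variance was divided by 1.5 for a single library and multiplied by 2 for a difference. Positions and lengths were taken from GENCODE M21 (GRCm38) by symbol, with a length for 99.3% of expressed genes. Promoter sequences are RefSeq's (GRCm38.p6), and all 10 genes matched. The length trend was a lowess curve (fraction 0.3).

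Named were all 10 genes, the 3 expressed genes nearest to each changed gene, up to 4 changed genes of each of 14 lists and, of lists without any, the most abundant 2. A gene that this rule would name is not reported here and was left out of its list. Angpt1, Angpt2, Vegfc beside Ccbe1, Dll4, Folr1, Sema3c, Acta2, Ly6a, Ptprb, Hif1a, Pfkfb3, Ndrg1 and Pdk1 were added after their values were seen. The genes and lists were chosen with earlier results of these data known. Alternatives were cut-offs of 0.2, 0.4 and 3 technical SDs, median centring, quantile normalization, a minimum mean of 7 or none, removal of the length trend, LD and CE averaged as the baseline and another mixture. The scripts were tested on simulated data. The software was python 3.11.15 with matplotlib 3.10.9, statsmodels 0.14.6, scipy 1.17.1, pandas 2.3.3 and numpy 2.4.6.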

Additional observations from a re-analysis of the deposited data

How the results depend on the processing

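No paired analysis was possible because each group had 1 library. Leaving out a library within a group was not possible for the same reason, and the values describe these pools, not the spread between mice. Of the 10 genes, 1 was changed in RUN at 0.3, but 0 at a cut-off of 0.4, 0 with the length trend removed, 0 with the trend of coding-transcript length removed and 0 against the mean of LD and CE. At a cut-off of 0.2, 1 was changed in CE, 3 in RUN, 3 in L-RUN, 2 in H-RUN, 1 between H-RUN and L-RUN and 1 between CE and RUN. At 3 technical SDs, with the length trend left in, these counts were 2, 5, 4, 5, 2 and 4. Flt1 was changed in L-RUN under all alternatives run.

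Genes below LD and CE in all running libraries numbered 5, and 6 in H-RUN alone (with Vegfc, against 31.0% of expressed genes), 6 without the length trend (with Vegfb, 15.0%) and 5 after quantile normalization (14.9%). These alternatives and the coding-transcript length were chosen after seeing the data. Of 372 differences of the 10 genes recomputed under other settings, 59 moved by at least a technical SD and 25 changed sign, none of them larger than 0.053 as reported. Those that moved were 9 of 30 with LD and CE averaged as the baseline, 3 of 60 with quantile normalization, 23 of 60 with the length trend removed and 24 of 60 with that of coding transcripts. The technical SD was 0.0365 with either mixture. Pgf, Vegfc and Flt4 fell under a minimum mean of 7. Without counts, no precision from depth can be given.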
